A study of Mus musculus with 5 samples.

Results

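Natural killer (NK) cells and other cytotoxic lymphocytes are marked here by 9 genes. They comprise the granule genes Gzma, Gzmb, Prf1 and Nkg7, the receptor genes Ncr1, Klrk1 and Klrd1, and the transcription factor genes Eomes and Tbx21. The genes were chosen by name, and every probe whose RefSeq accession belongs to one of them was taken. This gave 11 probes for the 9 genes, with 2 probes each for Nkg7 and Eomes, out of 26535 probes for 20121 genes measured on all arrays. Female BALB/c mice received 1 intraperitoneal injection, and RNA was taken from their peritoneal lavage cells 2 h later. The 5 groups received PBS, 50 µg AEPS (a polysaccharide of Actinidia eriantha roots), 25 µg OVA (ovalbumin) alone, the same OVA dose mixed with 50 µg AEPS, or the same OVA dose mixed with 200 µg alum, an aluminium salt adjuvant. All groups share strain, sex and time of harvest. Their age, and whether several mice were pooled on an array, are not given in the sources used here. Each group is 1 single-colour array, so differences cannot be checked between replicates and no p-value is printed. Every "higher" and "lower" refers to these arrays.

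NK cells are innate lymphocytes that kill infected or stressed cells and are an early source of interferon gamma. A few of them, with some T cells, live in the peritoneal cavity beside its many macrophages and B cells. They kill by releasing granules in which perforin (Prf1) opens the target membrane and granzymes (Gzma, Gzmb) cut proteins inside the target. Granzyme B activates caspases, and its mRNA is known to be raised in NK cells by interleukins such as IL-15. Killing is set by the balance of activating receptors, such as NKp46 (Ncr1) and NKG2D (Klrk1), and inhibitory ones, such as the CD94 (Klrd1) and NKG2A pair. The T-box factors Eomes and T-bet (Tbx21) direct the development and effector genes of these cells. None of the 9 genes except Ncr1 is close to specific for NK cells, since cytotoxic T cells use the others too.

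The promoters of the 4 genes that passed 2-fold in at least one of the 6 comparisons are printed to show the sequence around their start sites. Each is RefSeq sequence of assembly GRCm38.p6, 5′ to 3′ on the gene's strand, from 250 bases before to 50 bases after the annotated start, 300 bases in all. Capitals mark matches, on either strand, to TGTGGT (Runx factors), AGGTGTGA (T-box factors), TTCNNNGAA (STAT factors) and the core of the interferon-stimulated response element. Gzmb lies at chr14:56262285-56262584 on the minus strand, Gzma at chr13:113100932-113101231 on the minus strand, Klrk1 at chr6:129623815-129624114 on the minus strand, and the first of the Ncr1 starts at chr7:4337465-4337764 on the plus strand.
Gzmb: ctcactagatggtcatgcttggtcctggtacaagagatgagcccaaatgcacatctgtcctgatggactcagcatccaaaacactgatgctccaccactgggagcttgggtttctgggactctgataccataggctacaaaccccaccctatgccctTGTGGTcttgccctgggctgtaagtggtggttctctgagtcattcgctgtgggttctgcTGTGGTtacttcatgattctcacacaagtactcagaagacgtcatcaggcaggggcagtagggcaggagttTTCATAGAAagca
Gzma: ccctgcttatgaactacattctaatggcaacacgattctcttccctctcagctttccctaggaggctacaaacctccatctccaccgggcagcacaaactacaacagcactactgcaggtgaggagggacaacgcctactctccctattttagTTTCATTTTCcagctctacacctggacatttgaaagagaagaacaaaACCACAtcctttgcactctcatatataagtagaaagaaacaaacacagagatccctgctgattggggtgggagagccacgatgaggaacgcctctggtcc
Klrk1: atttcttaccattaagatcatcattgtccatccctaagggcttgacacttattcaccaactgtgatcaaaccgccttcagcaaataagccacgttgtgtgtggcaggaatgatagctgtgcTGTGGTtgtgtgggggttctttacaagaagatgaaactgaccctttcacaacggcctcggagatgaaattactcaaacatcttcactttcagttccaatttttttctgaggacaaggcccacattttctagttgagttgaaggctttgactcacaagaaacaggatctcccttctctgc
Ncr1: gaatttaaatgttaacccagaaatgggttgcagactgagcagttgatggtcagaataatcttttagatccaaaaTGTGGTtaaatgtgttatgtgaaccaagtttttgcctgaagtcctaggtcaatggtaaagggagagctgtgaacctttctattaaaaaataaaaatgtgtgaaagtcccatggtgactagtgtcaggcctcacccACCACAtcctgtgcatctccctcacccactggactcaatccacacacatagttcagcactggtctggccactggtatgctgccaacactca

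Gzmb held 2 Runx matches, beginning 93 and 34 bases before the start, and a STAT match 37 bases after it. Gzma held a Runx match 50 bases before its start and an interferon-element match 97 bases before it. Of the 9 genes, 8 had a promoter entry, all but Klrd1. A Runx match was present in 6 of these 8 and in 16.8% of all 32851 promoters of this length. The T-box match was present in 1 of 8, Nkg7, against 1.28% of all promoters. The interferon element was found in 2 of 8 (Eomes and Gzma) against 3.44%, and the STAT motif in 2 of 8 (Nkg7 and Gzmb) against 8.30%. These matches describe letters in a window and were not measured as binding sites.

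The scanner flagged all 11 probes as well above background on all 5 arrays, as it did 56.74% to 60.03% of all probes per array. All arrays were on 1 slide, with PBS alone in the first row and the 4 other arrays in the second, so in every contrast to PBS the injection and the slide row cannot be told apart. Levels are log2 processed signal relative to the array's own 75th percentile. A level near 0 is therefore close to that percentile, and levels of different probes are not compared. Each difference carries a technical SE, computed from the spot errors that the scanner software reports. For all but dim probes these errors are close to a fixed 10% of the signal, so the SE is nearly the same for most genes. The SE is not a measured spread, and it covers neither the spread between mice nor that between arrays. The SE was 0.20 for every member except Klrk1, whose dim probe gave 0.22 to 0.26. A difference is past technical error when its 95% technical interval leaves out 0, and calls of higher or lower need 2-fold or more.

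Gzmb moved more than any other member. Its processed signal was 1571 on the PBS array, 17851 with AEPS, 3574 with OVA, 8344 with OVA and AEPS, and 5953 with OVA and alum. The matching log2 levels were 2.23, 5.43, 3.03, 4.39 and 3.82. The AEPS array was highest and the PBS array lowest, and every neighbouring pair in the order AEPS, OVA+AEPS, OVA+Alum, OVA, PBS differed by more than technical error. The span from lowest to highest was 3.21 (log2).

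Gzma, the other granzyme, moved less. Its log2 levels were 6.44 with PBS, 7.54 with AEPS, 7.22 with OVA, 7.09 with OVA and AEPS, and 6.92 with OVA and alum. PBS was again lowest and AEPS highest, and only PBS stood apart from its neighbour. The 4 other arrays followed one another in steps that did not exceed technical error. Arrays farther apart in the order did differ, with OVA+AEPS against AEPS at -0.46 ± 0.20. Prf1, the pore-forming protein, read 2.54, 3.20, 2.73, 2.52 and 2.86 in the same order of arrays. No neighbouring Prf1 levels differed beyond technical error. AEPS was the highest array for all 3 of these killing genes.

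Nkg7, a membrane protein of cytotoxic granules, did not follow them. Its brighter probe read 5.12 with PBS, 5.08 with AEPS, 4.96 with OVA, 4.47 with OVA and AEPS, and 5.03 with OVA and alum. OVA+AEPS was the lowest array, past technical error from its neighbour, and the other arrays did not differ from their neighbours. Its second probe gave 4.04, 3.95, 3.89, 3.29 and 3.96, with OVA+AEPS again lowest.

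Among the receptor genes, Klrk1 had the widest span. NKG2D, the receptor it encodes, recognises stress-induced ligands. Its levels were -3.59 with PBS, -1.98 with AEPS, -2.97 with OVA, -2.53 with OVA and AEPS, and -3.93 with OVA and alum. AEPS was highest and the OVA+Alum and PBS arrays were lowest, with no difference beyond technical error between those lowest arrays. The signals behind these levels were small, from 27.6 to 104.9 intensity units, so background handling bears on this gene more than on the others.

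Ncr1 and Klrd1 had another order, with OVA alone highest, though AEPS was highest when arrays were scaled to spike-in probes. Ncr1 read 1.17 with PBS, 1.32 with AEPS, 1.73 with OVA, 0.67 with OVA and AEPS, and 0.95 with OVA and alum. Klrd1 read -0.45, 0.30, 0.51, -0.36 and -0.30 in the same order. For Ncr1, OVA stood above the AEPS array by more than technical error. For Klrd1, OVA and AEPS did not differ from each other, and both lay above the remaining arrays.

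The transcription factor genes were lowest on the OVA+AEPS array. Tbx21 read 2.36 with PBS, 2.01 with AEPS, 2.42 with OVA, 1.53 with OVA and AEPS, and 2.45 with OVA and alum. The brighter Eomes probe read 0.25, 0.24, 0.20, -0.33 and 0.53. In both genes OVA+AEPS lay below its neighbour by more than technical error, and the remaining neighbours did not differ. The dimmer Eomes probe disagreed, reading -2.73, -3.30, -3.17, -3.17 and -2.69, with AEPS lowest and no neighbours differing.

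**Figure D1:**
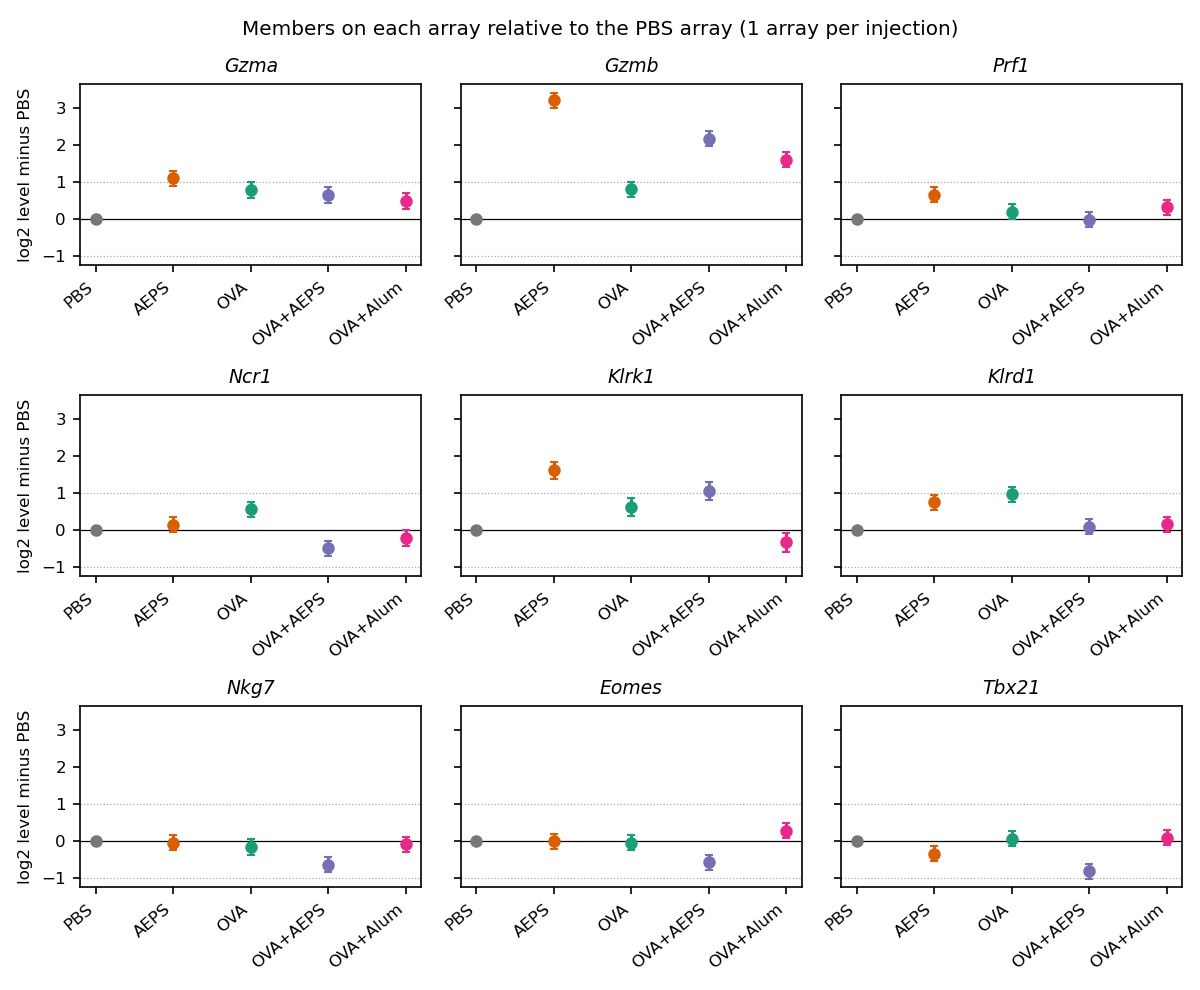
Log2 level of each of the 9 genes on each array minus its level on the PBS array, 1 panel per gene and 1 array per injection. Error bars are the technical SE of the difference, and dotted lines mark 2-fold. Gzmb reaches 3.21 on the AEPS array, while Nkg7, Eomes and Tbx21 lie within 1 of PBS on every array.

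The comparison of AEPS with PBS asks what the polysaccharide alone does in the cavity. Gzmb was 9.23-fold higher, a log2 difference of 3.21 ± 0.20. Klrk1 was 3.05-fold higher (1.61 ± 0.24) and Gzma 2.14-fold higher (1.10 ± 0.20). These 3 of 9 members were called, all higher, where 15.6% of the 14936 genes compared were called either way and 8.7% were called higher. Gzmb ranked 132 of these genes from the highest difference down. Klrd1 (0.74) and Prf1 (0.66) were also past technical error without reaching 2-fold. That makes 5 of 9 members higher by more than technical error, against 18.8% of all genes. Ncr1 (0.14), Eomes (-0.01), Nkg7 (-0.05) and Tbx21 (-0.35) were not, and the last 3 turned above 0 when arrays were scaled to spike-in probes, as did Eomes and Nkg7 when scaled to each array's median. Klrk1 fell below 2-fold, at 0.76, after normexp background correction. The median member difference was 0.66, beside -0.17 over all genes. In RNA from a mixed lavage, more cells of a type and more RNA per cell cannot be told apart.

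OVA alone against PBS asks about the antigen without adjuvant. No member reached 2-fold, where 10.8% of 15041 genes did. Klrd1 was closest, at 0.96 ± 0.20, followed by Gzmb at 0.80, Gzma at 0.78, Klrk1 at 0.61 and Ncr1 at 0.56. These 5 of 9 were higher by more than technical error, against 16.4% of all genes. Prf1 (0.19), Tbx21 (0.06), Eomes (-0.05) and Nkg7 (-0.17) were not. The median member difference was 0.56, beside -0.14 over all genes. Scaling to spike-in probes brought Klrd1, Gzmb and Gzma past 2-fold.

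Adding AEPS to OVA split the members. Gzmb was 2.57-fold higher than with OVA alone (1.36 ± 0.20), and Ncr1, the most NK-restricted receptor of the set, was 2.09-fold lower (-1.06 ± 0.20). These 2 of 9 were called, where 7.72% of 14904 genes were called either way. Tbx21 (-0.89), Klrd1 (-0.88), Eomes (-0.52) and Nkg7 (-0.49) were lower by more than technical error without reaching 2-fold. With Ncr1 that makes 5 of 9 lower, against 12% of all genes. Klrk1 was higher at 0.44 ± 0.22, just past technical error, and Gzma (-0.14) and Prf1 (-0.21) were within it. The dimmer Eomes probe showed no difference, at 0.00 ± 0.24. The median member difference was -0.49, beside -0.02 over all genes. Ncr1 came to -0.97 after normexp correction and -0.87 with spike-in scaling, under 2-fold in both.

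Alum added to OVA gave no member at 2-fold, where 9.59% of 15060 genes were called. Gzmb was higher by 0.79 ± 0.20. The 3 receptor genes were lower, with Klrk1 at -0.96 ± 0.25, Klrd1 at -0.82 ± 0.20 and Ncr1 at -0.78 ± 0.20, each past technical error. Klrk1 came to -0.33 after normexp correction. The share of all genes lower by more than technical error was 14.7%, and 18.2% were higher. Gzma (-0.30), Prf1 (0.13), Nkg7 (0.07), Eomes (0.33) and Tbx21 (0.03) were within technical error. The median member difference was 0.03, beside 0.08 over all genes. This comparison and that of OVA+AEPS share the OVA array.

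The adjuvants were then compared directly, OVA+AEPS against OVA+Alum. Klrk1 was 2.63-fold higher with AEPS (1.40 ± 0.24), the only call among 9, where 13.2% of 14994 genes were called. After normexp correction Klrk1 differed by 0.53. Gzmb was also higher with AEPS, by 0.57 ± 0.20, past technical error. Tbx21 (-0.91), Eomes (-0.85) and Nkg7 (-0.56) were lower with AEPS, past technical error as 22.3% of all genes were in that direction. Gzma (0.16), Prf1 (-0.34), Ncr1 (-0.28) and Klrd1 (-0.06) were within it, and spike-in scaling turned Ncr1 and Klrd1 above 0.

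When OVA was added to AEPS, all 9 members were lower than with AEPS alone. Gzmb fell 2.06-fold (-1.04 ± 0.20), the only call, where 3.94% of 14692 genes were called. Prf1 (-0.68), Klrd1 (-0.66), Ncr1 (-0.65), Nkg7 (-0.61), Eomes (-0.57), Klrk1 (-0.56), Tbx21 (-0.48) and Gzma (-0.46) were each lower by more than technical error. All 9 were past technical error in this direction, against 5.44% of all genes, and 49.2% of all genes were below 0. The median member difference was -0.61, beside 0.00 over all genes. Gzmb came to -0.99 in the authors' deposited table, under 2-fold. The members kept their sign under all 8 other settings, but not all stayed past technical error. Gzma came to -0.39 with quantile normalization and -0.38 in the deposited table. Klrk1 came to -0.30 with normexp and Eomes to -0.22 with the median over probes, all within technical error. The dimmer Eomes probe alone differed in sign, at 0.13 ± 0.25. Both arrays lie in the same slide row.

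**Figure D2:**
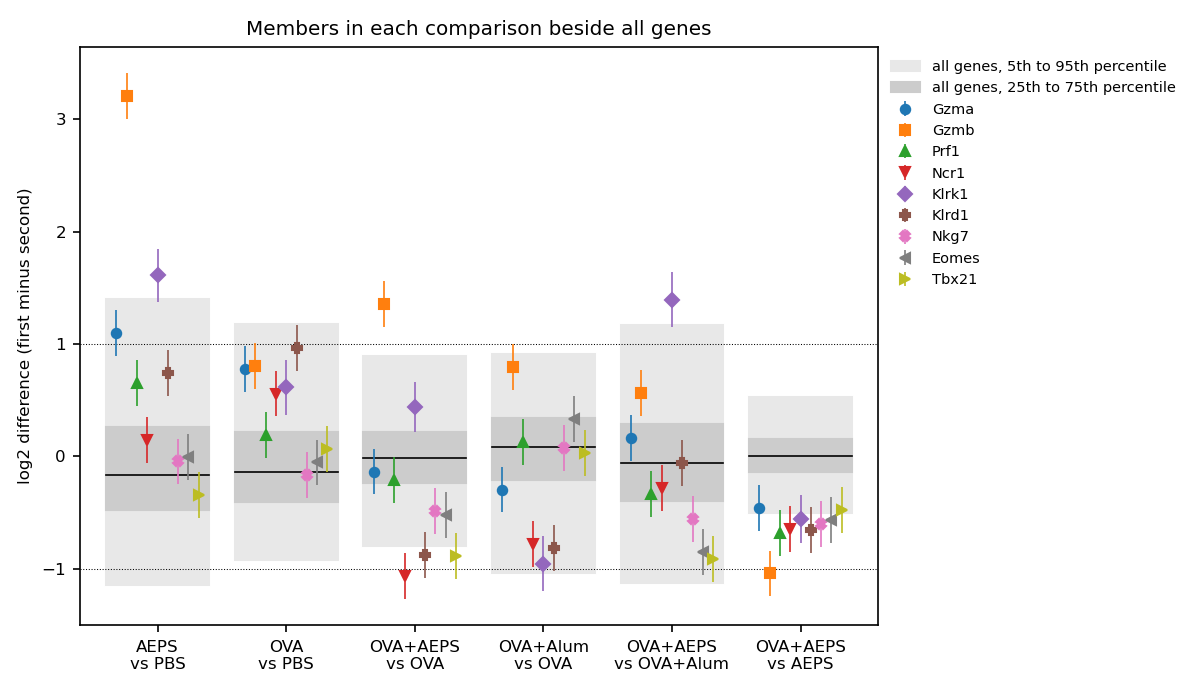
Log2 difference of each of the 9 genes in the 6 comparisons, with technical SE bars, over grey bands that hold the middle 50% and 90% of all genes. Gzmb leads in AEPS vs PBS at 3.21, and all 9 genes lie below 0 in OVA+AEPS vs AEPS.

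Gzmb was also called in the 3 further pairs of arrays that were compared. Against PBS it was 2.16 ± 0.20 higher with OVA and AEPS and 1.60 ± 0.20 higher with OVA and alum. With OVA and AEPS, Klrk1 (1.05 ± 0.24) was called too, 2 of 9 where 14.5% of genes were called. With OVA and alum, Gzmb was the only member called where 11.6% of genes were. AEPS alone exceeded OVA alone by 2.40 ± 0.20 in Gzmb, the only call where 7.49% of genes were called, while Klrk1 was 1.99-fold higher, just under the threshold.

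Gzmb was set against the other members on each array to describe how its change from PBS compared with theirs. Gzmb is the member with the largest span, so a positive excess on the AEPS array follows from that choice. It was also lowest on PBS, the baseline of every set, which favours a positive excess on the other arrays too. What lies behind the excess was not tested. On the AEPS array, the Gzmb change from PBS exceeded that of the 8 other genes by 1.60 (Klrk1) to 3.55 (Tbx21), with a median of 2.81. With OVA and AEPS the excess was 1.11 to 2.99 (median 2.43), and with OVA and alum it was 1.11 to 1.94 (median 1.48). With OVA alone it was -0.16 to 0.97 (median 0.43), Klrd1 having changed more than Gzmb. These values do not depend on scaling by a constant, which cancels between genes of an array, and all 4 sets share the PBS array.

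**Figure D3:**
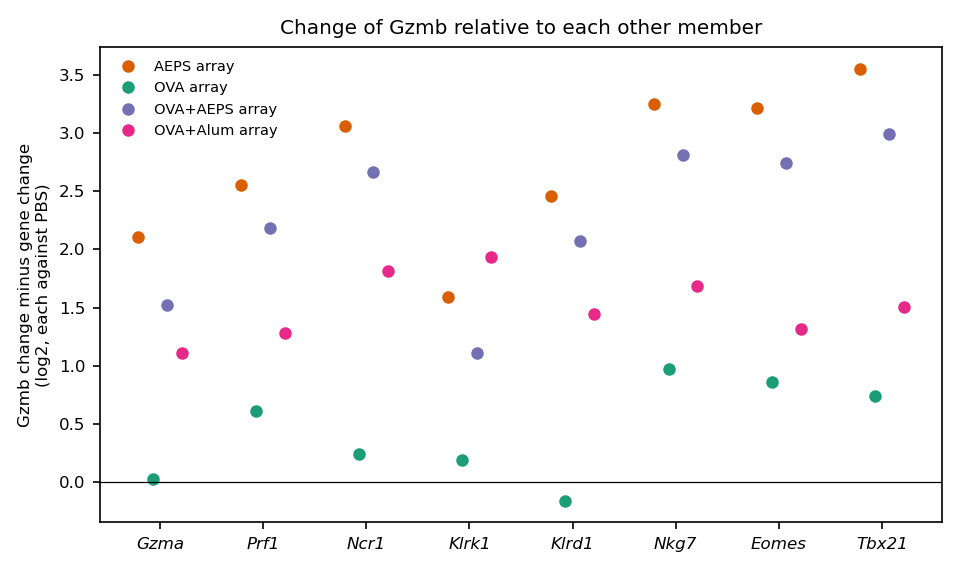
Change of Gzmb from PBS minus the change of each of the 8 other genes from PBS (log2), 1 point per array. Points of the AEPS, OVA+AEPS and OVA+Alum arrays all lie above 1, and those of the OVA array lie between -0.16 and 0.97. Gzmb has the largest span and is lowest on PBS, which favours positive values.

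For all 9 members the AEPS difference was lower, in the signed sense, with OVA than without it. For each gene, the AEPS difference with OVA (OVA+AEPS minus OVA) was compared with that without OVA (AEPS minus PBS). The gap was -1.85 ± 0.29 for Gzmb, -1.62 ± 0.29 for Klrd1, -1.24 ± 0.29 for Gzma, -1.21 ± 0.29 for Ncr1 and -1.17 ± 0.32 for Klrk1. It was -0.87 ± 0.29 for Prf1, -0.54 ± 0.29 for Tbx21, -0.51 ± 0.29 for Eomes and -0.44 ± 0.29 for Nkg7. Gzmb and Klrk1 were higher in both settings but less so with OVA, and Gzma, Prf1, Ncr1 and Klrd1 had opposite signs. Without OVA, Tbx21 (-0.35), Eomes (-0.01) and Nkg7 (-0.05) were within technical error of 0, and with OVA they were lower by more than it. The dimmer Eomes probe went the other way, at -0.57 ± 0.24 without OVA and 0.00 ± 0.24 with it. All 9 gaps lay below 0 with a median of -1.17, but those of Tbx21, Eomes and Nkg7 were within technical error. Over 14454 genes, 38.3% lay below 0 and the median was 0.14. The difference between the effects was not tested, as each arm is 1 array and the PBS array alone lies in slide row 1.

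Genes that act beside the members were read from 6 lists. The counts that follow are to be read against all genes. AEPS against PBS had 8.7% of genes called higher and 6.89% called lower, and OVA against PBS had 6.67% higher and 4.08% lower. Adding AEPS to OVA gave 4.08% higher and 3.64% lower, whereas adding alum gave 4.15% higher and 5.44% lower. With the alum array as the control for OVA+AEPS, 6.76% were higher and 6.44% lower, and with the AEPS array as its control, 2.06% were higher and 1.88% lower. The first held 23 genes of granule content, release, protection and other killing routes. Its 5 genes Gzmd, Gzme, Gzmf, Gzmg and Serpinb9b were never well above background, which left 18. With AEPS against PBS, 7 of 18 were called higher and 1 lower, with a median of 0.45. They included Gzmc, a granzyme encoded beside Gzmb, at 2.88 ± 0.22, Ifng, the interferon gamma gene, at 2.40 ± 0.20, and Tnfsf10, which encodes the death ligand TRAIL, at 2.39 ± 0.20. Rab27a, a GTPase of granule docking, was the one lower, at -1.05 ± 0.20. Whether the Gzmc and Gzmb probes also bind each other's closely related mRNA was not tested.

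The granule list moved less in the other comparisons. With OVA against PBS, 4 of 18 were higher, among them Srgn, the granule proteoglycan serglycin, at 1.33 ± 0.20, Lyst, a regulator of granule size, at 1.18 ± 0.21, and Serpinb6b, a protease inhibitor, at 1.12 ± 0.20. Gzmk was lower, at -1.10 ± 0.20. Tnfsf10 was the one call when AEPS was added to OVA, at 1.50 ± 0.20, and Gzmc the one call with alum, at 1.35 ± 0.21. Against OVA+Alum, OVA+AEPS had Tnfsf10 at 1.95 ± 0.20 and Gzmm, a further granzyme, at -1.07 ± 0.20. No gene of the list was called between OVA+AEPS and AEPS, where its median was -0.24.

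Ifng and Gzmc followed Gzmb in having AEPS highest and PBS lowest. Ifng read -0.21 with PBS, 2.19 with AEPS, 0.88 with OVA, 1.53 with OVA and AEPS, and 1.84 with OVA and alum. Gzmc read -2.77, 0.11, -1.85, -0.85 and -0.50 in the same order. In both, the OVA+Alum and OVA+AEPS arrays differed by less than technical error, whereas Gzmb was higher with OVA and AEPS.

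The second list held 43 receptors and adaptors of NK cells, 40 of them on the array. With AEPS against PBS, 10 of 39 were called higher and 0 lower, where 8.7% of all genes were called higher and 6.89% lower. The list median was 0.55, beside -0.17 over all genes, and no p-value applies with 1 array per group. Il18rap, a chain of the IL-18 receptor, was at 1.74 ± 0.21, Klra2, a Ly49 family receptor, at 1.66 ± 0.20, and Klrb1f, an NKR-P1 family receptor, at 1.59 ± 0.21. With OVA against PBS, 10 of 40 were higher, including Klrb1f (1.61 ± 0.21), Klra2 (1.40 ± 0.20) and Klra9 (1.28 ± 0.20), and Klra1 was lower (-1.03 ± 0.20). Ly49 genes (Klra) are near-identical copies whose number differs between strains, and BALB/c mice are known to lack Klra4 and Klra8, so values of single Klra probes are uncertain. They made up 5 of the 10 calls with AEPS and 6 of the 10 with OVA.

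Receptor calls were mostly lower where alum was added to OVA. With alum, 8 of the 39 genes above background on both arrays were lower and 1 was higher. Of all 14199 genes above background on both arrays, 568 were called lower and 396 higher. Among genes above background on at least 1 of the arrays, the shares were 5.44% and 4.15%. Most of the 8 were Ly49 genes, among them Klra4 and Klra8, which BALB/c mice are known to lack. The median of the whole list was -0.13, beside 0.08 over all genes. Klra8 was at -1.38 ± 0.20 and Cd226, which encodes the activating receptor DNAM-1, at -1.94 ± 0.25. Klri1, not well above background with alum, was lower by at least 1.92-fold, a bound short of 2-fold. Tigit, an inhibitory receptor for the same ligands as Cd226, was higher at 1.08 ± 0.22. With AEPS added to OVA, 1 of the 38 genes above background on both arrays was lower and 0 were higher, again with no test. The lower gene was Klra8 (-1.03 ± 0.20), which BALB/c mice are known to lack. Of all 14074 genes above background on both arrays, 309 were called lower. Among genes above background on at least 1 of the arrays, the share was 3.64%. Cd160 and Klri1 were below background with OVA and AEPS, and were lower by at least 1.72-fold and at least 1.26-fold, bounds short of 2-fold. The median of the whole list was -0.47, beside -0.02 over all genes. Cd226 was higher with AEPS than with alum, at 1.25 ± 0.26. Adding OVA to AEPS called Klra5 lower (-1.13 ± 0.27), and the list median was -0.48. The signalling adaptors Tyrobp and Hcst, which serve these receptors and are shared with myeloid cells, ranged only from 8.19 to 8.71 and from 6.25 to 6.56 over the 5 arrays.

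Transcription factors of the lineage gave few calls among 15 genes. With AEPS against PBS, Rora (1.39 ± 0.25) and Stat4, which carries the IL-12 signal, (1.23 ± 0.20) were higher and Zbtb16, the factor PLZF of innate-like lymphocytes, was lower (-1.12 ± 0.21). With OVA against PBS only Rora was called, at 1.01 ± 0.25. Zbtb16 was lower when AEPS was added to OVA (-1.49 ± 0.21) and lower with AEPS than with alum (-2.44 ± 0.21), as was Tox (-1.12 ± 0.21). No factor reached 2-fold between OVA+Alum and OVA, where the list median was 0.47, or between OVA+AEPS and AEPS.

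Cytokines that act on NK cells were among the higher genes on both AEPS arrays. With AEPS against PBS, 5 of 9 were called higher and 0 lower, again without a test, with a median of 1.38. Il15, which sustains and arms NK cells, was at 3.63 ± 0.21, Il23a, a subunit of IL-23, at 2.53 ± 0.21, and Il15ra, which presents IL-15, at 1.72 ± 0.20. When AEPS was added to OVA, 4 of 9 were higher, including Il23a (2.32 ± 0.21), Il27 (1.34 ± 0.20) and Il15 (1.16 ± 0.20). Il15 itself read -2.42 with PBS, 1.21 with AEPS, 0.01 with OVA, 1.18 with OVA and AEPS, and -0.31 with OVA and alum. Both AEPS arrays were highest for Il15 and nearly equal, whereas Gzmb was higher with AEPS alone. Any link between Il15 and Gzmb was not tested. OVA against PBS gave Il15 at 2.43 ± 0.21 and Ifnb1, interferon beta, at least 3.59-fold higher. Ifnb1 was at least 4.97-fold lower with OVA and alum than with OVA, and at least 5.74-fold higher with OVA and AEPS than with OVA and alum. Its probe was below background on the PBS and OVA+Alum arrays, which share slide column 4, and it was 1 of 156 genes whose level on each of those arrays was 2-fold or more under that on every other. None of the 9 members was in that set. Klrk1 was still lowest on those arrays, at -3.59 with PBS and -3.93 with OVA and alum, against -2.97 or more elsewhere. In every comparison that called it, 1 of those arrays was the lower one. Gzma was lowest there too, but OVA+Alum was within technical error of OVA+AEPS. The part of slide column in these differences was not tested. OVA+AEPS also exceeded OVA+Alum in Il23a (2.86 ± 0.22) and Il27 (1.62 ± 0.20). Between OVA+AEPS and AEPS no cytokine was called.

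Chemokines and homing receptors moved in opposite directions. With AEPS against PBS, 7 of 18 were higher and 4 lower. Cxcl10, a ligand of the NK and T cell receptor Cxcr3, was at 5.82 ± 0.20, Ccl4 at 3.13 ± 0.20 and Ccl7 at 2.87 ± 0.20. The lower genes included S1pr5, which NK cells use to leave tissues, at -2.37 ± 0.21, Cx3cr1, the fractalkine receptor, at -2.20 ± 0.21, and S1pr1 at -1.24 ± 0.20. With OVA against PBS, Cxcl10 (3.10 ± 0.20), Cxcl9 (1.52 ± 0.21) and Ccl4 (1.49 ± 0.20) were higher, and S1pr5 (-1.42 ± 0.20) and Cx3cr1 (-1.24 ± 0.20) were lower. Cx3cr1 and Ccr2 are also expressed by monocytes and macrophages.

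Homing receptors were lower again when AEPS joined OVA. Of 18 genes, 5 were higher, led by Cxcl10 (2.79 ± 0.20), Ccl7 (2.57 ± 0.20) and Ccl3 (1.62 ± 0.20), and 6 were lower, led by Ccr2 (-1.71 ± 0.20), S1pr5 (-1.60 ± 0.21) and Cxcr3 (-1.43 ± 0.20). S1pr5 read 1.19 with PBS, -1.18 with AEPS, -0.23 with OVA, -1.83 with OVA and AEPS, and -0.61 with OVA and alum. PBS was highest and OVA+AEPS lowest, so this NK homing gene did not follow Gzmb. With alum added to OVA, Ccr2 (-1.30 ± 0.20) and Xcl1, an NK chemokine that attracts dendritic cells, (-1.04 ± 0.20) were lower. OVA+AEPS exceeded OVA+Alum in 5 genes, with Cxcl10 at 3.64 ± 0.20, Ccl7 at 2.22 ± 0.20 and Ccl3 at 1.46 ± 0.20. It lay below in 5, including Cxcr3 (-1.95 ± 0.20), Cxcr4 (-1.34 ± 0.20) and S1pr5 (-1.22 ± 0.21). No gene of this list was called between OVA+AEPS and AEPS.

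Of 10 ligands of NKG2D and of the CD94 and NKG2A pair, 4 were on the array. Raet1e was the gene that stood out, with a level of -1.23 with OVA against -3.20 to -2.27 on the other arrays. It was 1.74 ± 0.22 above PBS with OVA, and Ulbp1 was 1.14 lower (-1.14 ± 0.30). H2-T23, the Qa-1 molecule that presents the peptide seen by CD94 and NKG2A, stayed between 8.89 and 9.10. With AEPS against PBS none of the 4 was called, and with 1 array per group no p-value can be given.

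**Figure D4:**
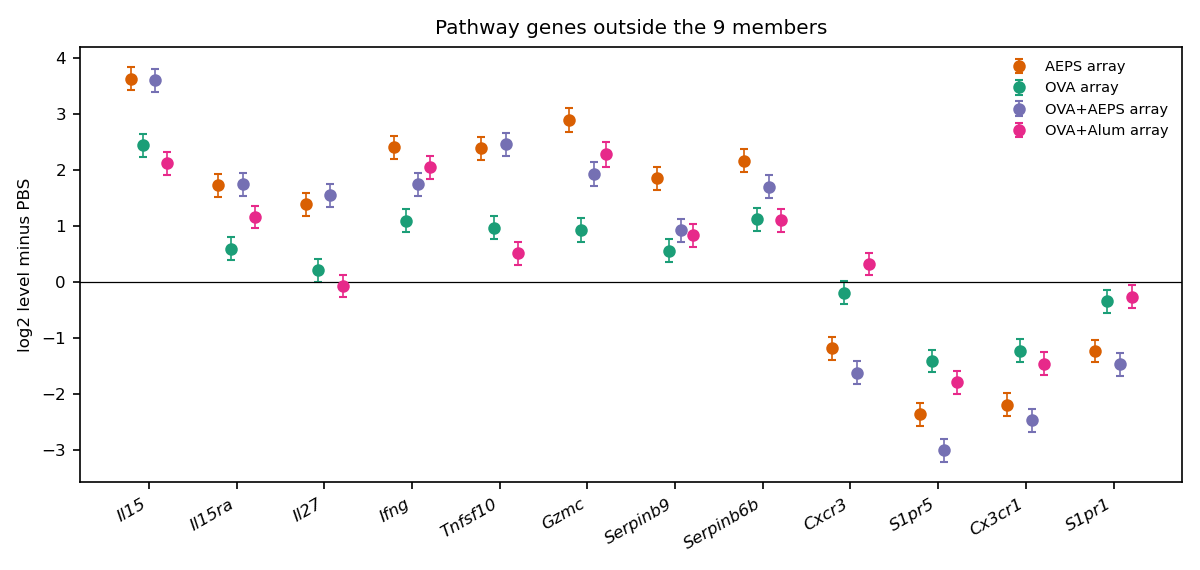
Log2 level minus the PBS level for 12 genes of the cytokine, granule and homing lists, chosen after their values were seen, with technical SE bars and 1 point per array. Il15, Il15ra and Il27 are highest on the AEPS and OVA+AEPS arrays, and Cxcr3, S1pr5, Cx3cr1 and S1pr1 are lowest there.

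The members were read beside markers of the cells that could carry them. All 7 NK cell markers were well above background on all 5 arrays. Their median difference from PBS was 0.67 with AEPS, 0.80 with OVA, 0.07 with OVA and AEPS, and 0.04 with OVA and alum. Their summed linear level ran from 6.11 with OVA and AEPS to 10.9 with OVA, against 7.30 with PBS, in units of each array's 75th percentile. Without Klra4 and Klra8, a change made after the values were seen, the medians were 0.40, 0.56, -0.31 and 0.15. The list shares Ncr1 and Eomes with the 9 genes.

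T cell markers moved differently. Over the 11 of 12 above background on all arrays, the median difference from PBS was -0.27 with AEPS, -0.12 with OVA, -0.51 with OVA and AEPS, and 0.14 with OVA and alum. Their summed level ran from 61.5 with OVA and AEPS to 103 with alum, against 86.9 with PBS. The T cell sum was lowest on the OVA+AEPS array. The NK sum was lowest there too, but it includes Ncr1 and Eomes. The sum of its 5 other markers was 3.72 there, beside 3.85 for PBS and 3.87 for alum. Those 5 had a median of 0.10 above PBS, but they include Klra4 and Klra8, which BALB/c mice are known to lack. With Klra4 and Klra8 left out and Ncr1 and Eomes kept, the NK sum was 4.36 with OVA and AEPS. It was then 5.74 with PBS and 5.91 with alum. The Gzmb level was 4.39 with OVA and AEPS, beside 2.23 with PBS. On the AEPS array the T cell sum was 77.8 and the NK sum 10.1, and Gzmb was 9.23-fold above PBS. Without Klra4 and Klra8 the NK sum on the AEPS array was 6.85. The part of cell numbers in the Gzmb differences was not tested.

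Other cell types also differed between the arrays. Neutrophil markers, 6 of 7 on the array, had medians of 0.78, 1.08, 0.68 and 1.55 above PBS with AEPS, OVA, OVA and AEPS, and OVA and alum. Markers of large peritoneal macrophages lay 1.24 below PBS with alum (-1.24), with a summed level of 468 against 913 with PBS, and between -0.44 and -0.24 on the other arrays. Their part in the member differences was not tested. Monocyte, mast cell, eosinophil with basophil, and dendritic cell medians lay between -0.16 and 0.72, with Epx and Xcr1 never above background. B cell medians lay between -0.47 and -0.06, those of markers shared by T and NK cells between -0.46 and 0.22, and those of red cells and platelets between -1.31 and 0.59.

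**Figure D5:**
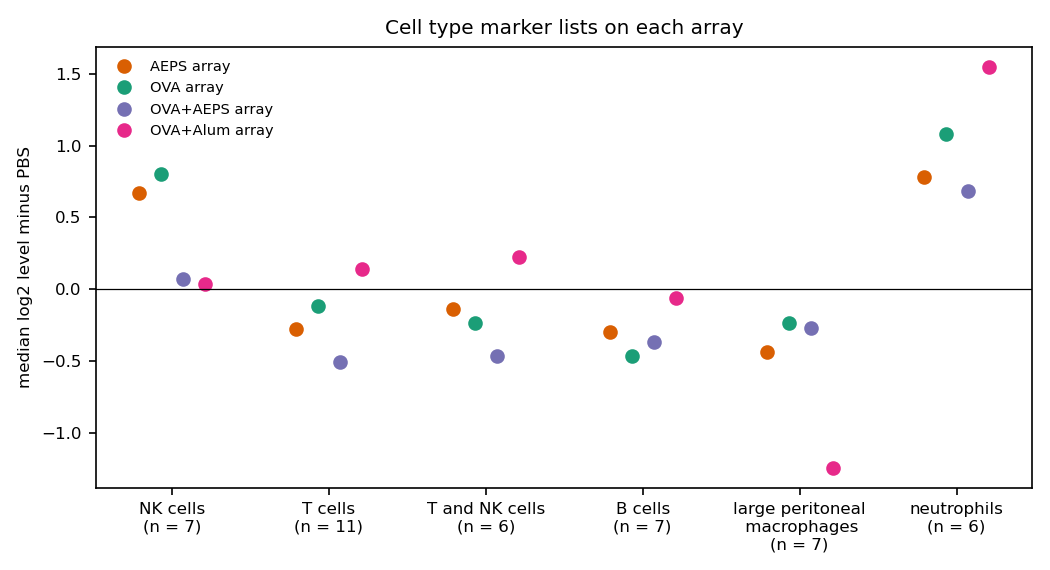
Median log2 difference from the PBS array over the markers of 6 cell types, 1 point per array, with n markers above background on all 5 arrays. The NK list is highest with OVA (0.80) and AEPS (0.67), and the neutrophil list is highest with alum (1.55). The NK list includes Klra4 and Klra8, which BALB/c mice are known to lack. Without them its medians were 0.56 with OVA, 0.40 with AEPS, -0.31 with OVA and AEPS, and 0.15 with OVA and alum.

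Genes with the most similar pattern were found by the root mean square (RMS) difference of the 5 centred log2 levels. The search covered 13677 genes above background on every array and the 4 members that span at least 1 log2 unit. Gzmb was closest to Igtp, an interferon-inducible GTPase (RMS 0.34), to Gzmc (0.35) and to Phf11c (0.38). Klrk1 was closest to Dkc1 (0.12), Enpp4 (0.16) and Ccdc25 (0.17). Ncr1 was closest to Sh2d1a, which encodes the SAP adaptor of lymphocytes (0.11), to Sema6a (0.16) and to the transcription factor gene Maf (0.16). Gzma was closest to Zfp280d (0.02), Cd209c (0.06) and Ikzf2 (0.06). With 5 arrays and this many candidates, close matches are a description of these arrays alone.

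Among the members themselves, Nkg7 and Eomes had the most similar pattern (RMS 0.13), followed by Eomes and Tbx21 (0.17) and by Nkg7 and Tbx21 (0.20). Ncr1 and Klrd1 differed by 0.22. Gzmb stood farthest from the others, from 0.76 with Klrk1 to 1.34 with Tbx21. On the 75th percentile scale the 9 genes thus showed 3 kinds of order over the arrays. AEPS was highest in Gzma, Gzmb, Prf1 and Klrk1, and OVA was highest in Ncr1 and Klrd1. Nkg7, Eomes and Tbx21 had OVA+AEPS lowest with little else, though Prf1 and Ncr1 were lowest there too. The top arrays of Gzma, Prf1 and Klrd1 did not differ from the next beyond technical error. With spike-in scaling AEPS was highest in all 9 genes, so these kinds of order depend on the scale.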

How the data were processed

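The 5 single-colour Agilent arrays (Cy3) were analysed from their scanner files. The deposited processed signals are linear intensity values, which the authors made with Agilent Feature Extraction 10.7.1.1 per the file headers. The flags deposited beside them are other values of 0 or 1. A series table, also deposited by the authors, has log2 values with the same distribution and a median of 4.66 on every array, which is what quantile normalization between arrays gives. It served as an alternative. The genome build behind the array is not given in the sources used here.

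Control spots (3671 of 62976) and 134 to 219 outlier spots per array were left out. Spots of a probe were averaged, and log2 signal minus each array's 75th percentile was the main scale (Python 3.11.15, numpy 2.4.6, pandas 2.3.3). Of 55681 probes, 26582 had 1 gene symbol through RefSeq accessions of GRCm38.p6, 29099 had none and 0 had several. Where a gene had several probes, the brightest by mean signal stood for it. A gene was compared if well above background on at least 1 of both arrays. A bound ("at least N-fold") sets the measured array against the higher of the dim probe's own signal and the lowest signal well above background on the dim array. A call needs a 2-fold difference, and there was no test between groups, as each has 1 array, so the number of arrays limits the precision. The calling step was tested on simulated data.

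The alternatives were scaling to each array's median, quantile normalization, normexp (offset 50) with quantile normalization (limma 3.58.1 in R 4.3.3), spike-in scaling, the deposited table, no filter or a stricter one on dim probes, the median over probes, and, added after seeing the data, another control array and the NK list without 2 of its genes. The members, lists and rules were chosen with earlier results of these data known. The rule named all 9 members, up to 3 called genes of each list each way in each comparison with the largest difference, the 3 genes most like each member with a range of at least 1, and markers of the lists described. The genes Gzmd, Gzme, Gzmf, Gzmg, Serpinb9b, Tyrobp, Hcst, H2-T23 and the 12 plotted genes were named outside that rule, after their values were seen.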

Additional observations from a re-analysis of the deposited data

Results flagged for a closer look

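In the cases below, the same addition had opposite signs in its 2 settings, without and with the other agent. The difference between the settings was not tested, since each arm is 1 array and the PBS array lies alone in its slide row.

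AEPS gave Klrd1 at 0.74 against PBS and at -0.88 against OVA, a gap of -1.62. Read the other way, OVA against PBS and OVA+AEPS against AEPS gave the same gaps. OVA gave Gzma at 0.78 without AEPS and -0.46 with it, a gap of -1.24. For Gzmb the values were 0.80 and -1.04, a gap of -1.85. For Ncr1 they were 0.56 and -0.65, a gap of -1.21. For Klrk1 they were 0.61 and -0.56, a gap of -1.17. For Klrd1 they were 0.96 and -0.66, again a gap of -1.62. In these 5 genes both values were past technical error on the main scale, with opposite signs. After normexp correction both Klrk1 values were within it, at 0.26 without AEPS and -0.30 with it. The Gzma value with AEPS was -0.38 in the deposited table, also within technical error.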

How the results depend on the processing

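The 9 members were recomputed under 8 planned settings and, in 3 comparisons, with another control array. Of the 459 member differences recomputed so in the 6 comparisons, 432 stayed within the 95% technical interval of the reported value, 27 moved beyond it and 0 of the called ones changed sign. The order of arrays stayed the same in 38 of 54 cases. Spike-in scaling raised all levels relative to PBS by 0.67 (AEPS), 0.24 (OVA), 0.43 (OVA+AEPS) and 0.14 (OVA+Alum).

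The count of called members changed as follows. In AEPS vs PBS it went from 3 to 5 with spike-in scaling, to 2 with normexp, which lost Klrk1, and to 1 with OVA as the control array. In OVA vs PBS it went from 0 to 1 with each array's median and to 3 with spike-in scaling. In OVA+AEPS vs OVA it went from 2 to 1 with normexp and to 1 with spike-in scaling. In OVA+Alum vs OVA it went from 0 to 1, lower, with spike-in scaling and to 1, higher, with PBS as the control. In OVA+AEPS vs OVA+Alum it went from 1 to 2 with each array's median and to 0 with normexp. In OVA+AEPS vs AEPS it went from 1 to 0 with quantile normalization and to 0 in the deposited table. Only Gzmb and Gzma in AEPS vs PBS and Gzmb in OVA+AEPS vs OVA were called under all 9 settings including the main one.

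Over all genes, normexp cut the calls from 2328 to 1124, from 1617 to 638, from 1150 to 472, from 1444 to 502, from 1980 to 950 and from 579 to 184 in the 6 comparisons in the order of the text. Spike-in scaling gave 3640 in the first. No filter gave 1774 in the third and 1124 in the sixth. The stricter filter gave 694 in the third, 201 in the sixth and, in the others, counts within 1.5 times. The OVA control gave 1112 in the first and the PBS control 2171 in the third. The share of calls that were higher went from 55.8% to 68.8% (normexp) and 91.9% (spike-in) in the first. In the second it went from 62.0% to 72.6% (median), 80.1% (normexp) and 80.6% (spike-in). From the third to the sixth, spike-in scaling took it from 52.9% to 68.9%, from 43.3% to 32.02%, from 51.2% to 75.8% and from 52.3% to 38.4%, and normexp took the fourth to 30.5%. The cause was not tested.

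No paired analysis was possible because each group has 1 array, and for the same reason no replicate was left out. Signal over background limits Klrk1 and the dimmer Eomes probe most.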
